A study of Mus musculus with 11 samples.

Results

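The genes described here are 49 of the 21846 genes in the count table, the cell cycle and DNA replication genes of the MamBo mammary carcinoma lines. They were picked by symbol, with earlier results of these data known. They fall into 24 G1/S genes, whose products license, start and carry out DNA synthesis, and 25 G2/M genes, whose products drive and order mitosis. All 49 passed the filter on low counts in every comparison. RNA from 11 cultures was sequenced, with 1 library per culture, and the lines came from mammary tumors of virgin female mice that carry the human HER2 transgene (FVBhuHER2). The ages of those mice and the promoter of the transgene are not given in the sources used here. MamBo89, labelled HER2 stable, came from tumor A and gave 4 libraries, namely untreated cells, cells kept in trastuzumab at 30 µg/ml for 60 days, cells kept in it for 30 days and then for 30 days without it, and an untreated culture named AG3. AG3 was taken as the clone that the study's methods list, since its labels do not use that word. MamBo43, labelled HER2 labile, came from tumor B and gave 3 libraries, 1 untreated and 1 for each trastuzumab schedule. Its treated cells had lost HER2, although the paper still detected a small share of HER2-positive cells in long culture with trastuzumab. MamBo38, labelled HER2 loss, was set up from a tumor that grew after MamBo43 cells were injected into mice, and so goes back to tumor B. It gave 4 libraries, namely 2 untreated cultures and 1 for each schedule. The HER2-negative group therefore holds 6 libraries (all of MamBo38 and the treated MamBo43 cells) and the HER2-positive group 5 (all of MamBo89 and untreated MamBo43). The sample titles end in 1 of 2 numbers, called library codes here, and the labels do not say what they stand for. Code X is carried by 3 MamBo38 libraries (1 untreated and both treated), and code Y by the other untreated MamBo38 library and by every library of MamBo43 and MamBo89. Each line stems from 1 tumor, and MamBo38 does so by way of MamBo43. The study's methods mention replicates of each sample, but the labels give 1 library per condition except for untreated MamBo38 and do not say whether cultures were set up independently. The p-values therefore measure the spread between these libraries, which may be technical.

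As background, a cell that commits to division loads the Mcm2 to Mcm7 helicase ring onto DNA with the help of Cdc6 and Cdt1. It then activates the ring with Cdc45, the GINS proteins and Mcm10, and copies its genome with primase, polymerases and the sliding clamp Pcna. Transcription of these genes rises at the G1/S border under E2F factors, which the retinoblastoma proteins hold back and cyclin E with its kinase helps to release. A later wave, which needs the transcription factors Mybl2 and Foxm1, supplies cyclin B, Cdk1, the Polo and Aurora kinases, the spindle motors and the checkpoint proteins of mitosis. Its promoters often hold CCAAT boxes together with a CHR element, through which the DREAM complex represses them in resting cells. In a culture the mRNA levels of both waves rise with the share of cells that are cycling, and in bulk RNA more cycling cells and more mRNA per cycling cell cannot be told apart.

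Promoters of the members were read from a RefSeq table (GRCm38.p6) that spans 250 bases before to 50 bases after each transcription start. It holds promoters for 39 of the 49 genes (23 promoters of 20 G1/S genes and 19 promoters of 19 G2/M genes). The letters searched, on both strands, for E2F were TTCCCGC or else TTGGCGC or else TTCGCGC or else TTGCCGC. They were TTTGAA or else TTTAAA for the CHR element, and CCAAT for the CCAAT box. TTTAAA reads the same on both strands, and the E2F letters TTGGCGC can overlap a CCAAT box read from the other strand (ATTGG). An E2F match was present in 65.2% of the G1/S promoters, in 15.8% of the G2/M promoters and in 9.57% of all 32851 promoters read. A CHR match was present in 30.4% of the G1/S promoters, in 84.2% of the G2/M promoters and in 27.6% of all promoters. CCAAT boxes were present in 73.9%, 84.2% and 37.4%, and a CHR match together with a CCAAT box in 26.1%, 78.9% and 10.7%, in the same order. These shares describe letters in a window and show no binding. A window of 30 bases around 1 match is printed 5′ to 3′ on the gene's strand, with the match in capitals and otherwise in lower case. It is given for 3 G2/M genes, for Mcm2 and for 3 other G1/S genes (Mcm5, Mcm6 and Uhrf1). The latter stood above the other libraries of the line in both the MamBo38 library and the MamBo89 library described next. Mcm2 stood above the other libraries of its line in that MamBo89 library only, although its CPM was nearly the same in both (90.7 in MamBo38 and 90.5 in MamBo89). These genes were picked with their values known.

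The E2F matches of the G1/S genes were as follows.
Mcm5 (chr8:75109346-75109375, plus strand): cgccaagaactTTCGCGCcaaaacgtccag
Mcm6 (chr1:128359796-128359825, minus strand): ggcgtatgcttTTGGCGCgaaaagtgcgtg
Uhrf1 (chr17:56303278-56303307, plus strand): tgctttctcgcTTCCCGCcacagcgccagc
The CHR match of Mcm2, whose window held no E2F match, and those of the G2/M genes were as follows.
Mcm2 (chr6:88898833-88898862, minus strand): agggctcagcctTTTGAAagctgtgggcgg
Cdk1 (chr10:69352966-69352995, minus strand): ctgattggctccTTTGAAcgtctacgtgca
Mki67 (chr7:135716460-135716489, minus strand): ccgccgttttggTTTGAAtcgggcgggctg
Cdc20 (chr4:118437344-118437373, minus strand): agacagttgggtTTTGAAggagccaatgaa

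The 2 waves did not move alike across the 11 libraries. Levels are given in CPM, counts scaled to the size of the library with TMM factors. The level of a wave in a library was summarised as the median, over its genes, of log2(CPM + 0.5) minus the gene's mean over all 11 libraries. For the G2/M genes it was 0.415, 0.298 and 0.444 in the 3 MamBo38 libraries of code X and 2.125 in the MamBo38 library of code Y. It was -0.918 in untreated MamBo43, and -1.461 and -1.407 in the treated MamBo43 cells. In MamBo89 it was -0.052 in the untreated cells, -0.23 and -0.35 in the treated cells and 1.517 in AG3. So the highest 2 of the 11 libraries belonged to different lines and different HER2 states, and the lowest 3 were those of MamBo43. For the G1/S genes the order of the highest 2 changed and the range was narrower, from -0.583 in MamBo43 after 30 days of trastuzumab and 30 days without it to 0.834 in AG3, with 0.736 in the MamBo38 library of code Y and -0.003 in untreated MamBo43. The SD between libraries of the same line and state was 0.299 for G1/S and 0.623 for G2/M with all libraries, and 0.079 and 0.108 without the MamBo38 library of code Y. The plot of wave levels by library shows each gene as a point.

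**Figure D1:**
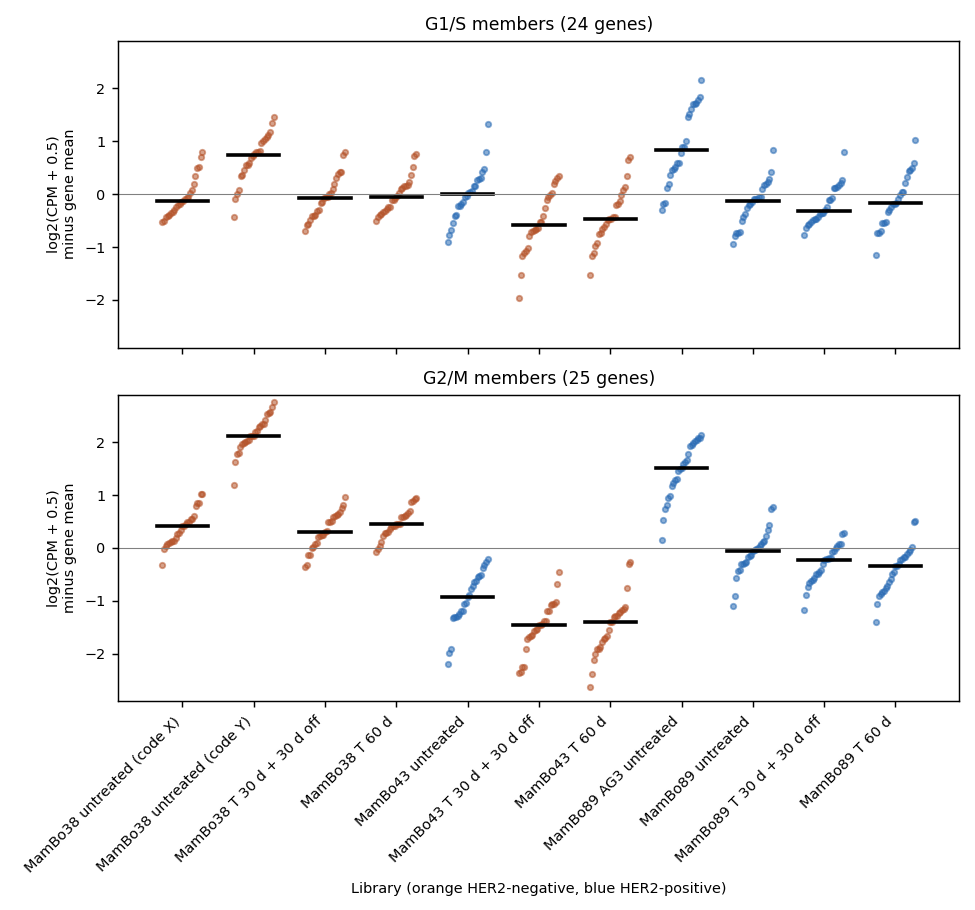
Level of each G1/S gene (top) and G2/M gene (bottom) in each of the 11 libraries, as log2(CPM + 0.5) minus the gene's mean over all libraries; points are genes sorted by value, black bars their median, and T stands for trastuzumab. The G2/M medians lie at 2.125 in the MamBo38 library of code Y and 1.517 in AG3, and between -1.461 and -0.918 in the 3 MamBo43 libraries.

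The highest level of a gene over its lowest level among the 11 libraries had a median of 17 over the G2/M genes (6.95 for Mybl2 to 40.1 for Aurkb) and of 4.29 over the G1/S genes (1.85 for Pcna to 20.0 for Uhrf1). The ratio passed 10 in 23 of 25 G2/M genes and in 2 of 24 G1/S genes. The highest library was the MamBo38 library of code Y for 19 G2/M genes and AG3 for the other 6. The lowest was a treated MamBo43 library for 20 of them. Among the G1/S genes, 19 were highest in 1 of those 2 libraries as well. The exceptions were Mcm2 and Tyms (highest in MamBo43 after 60 days of trastuzumab), Mcm7 (untreated MamBo43), and E2f1 and Gins2 (MamBo89 after 60 days of trastuzumab). The summed CPM of the G2/M genes over that of the G1/S genes was 0.285 to 0.314 in the MamBo43 libraries, 0.576 to 0.736 in the MamBo89 libraries other than AG3, 0.895 to 0.993 in the MamBo38 libraries of code X, 1.16 in AG3 and above 2 in the MamBo38 library of code Y (1860 CPM of G2/M genes against 858 CPM of G1/S genes). All 49 genes together took 0.0675% to 0.274% of the counts of a library.

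**Figure D2:**
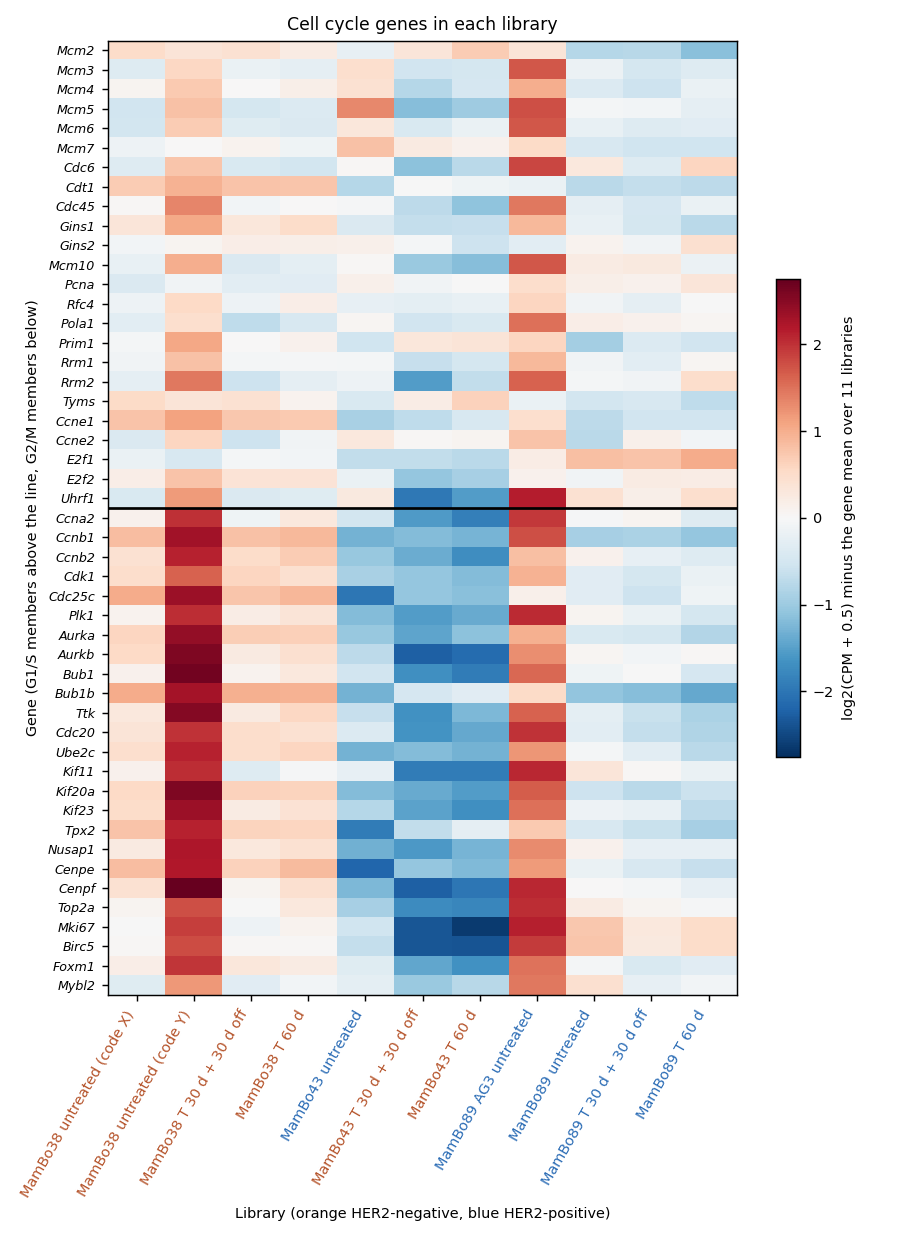
Heat map of the 49 genes (rows, G1/S above the black line and G2/M below it) in the 11 libraries (columns), coloured by log2(CPM + 0.5) minus the gene's mean; T stands for trastuzumab. The columns of the MamBo38 library of code Y and of AG3 are red in nearly every G2/M row, the MamBo43 columns are blue there, and the Cdt1 row is highest in MamBo38 and the E2f1 row in MamBo89.

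In what follows, values of MamBo38 are given in the order untreated code X, untreated code Y, trastuzumab for 30 days then 30 days without, and trastuzumab for 60 days. Those of MamBo43 and MamBo89 are given in the order untreated, 30 days then 30 days without, and 60 days, with AG3 last, and all are CPM. Of the helicase ring, Mcm2 (chr6:88883474-88898780, minus strand, GRCm38) stood at 100.2, 90.7, 94.8 and 83.4 in MamBo38, 60.7, 89.7 and 116 in MamBo43 and 40.8, 41.3, 31.8 and 90.5 in MamBo89. Its lowest 3 values were those of the MamBo89 libraries other than AG3, and its value in the MamBo38 library of code Y lay among those of the other MamBo38 libraries. Mcm5 (chr8:75109569-75128439, plus strand) stood at 10.02, 25.7, 10.3 and 11.2 in MamBo38, 37.4, 6.18 and 7.11 in MamBo43 and 14.1, 13.8, 12.2 and 51.1 in MamBo89. Mcm5 was thus high in 3 libraries, each from another line, and lowest in treated MamBo43. Mcm6, another ring subunit, reached 62.9 in the MamBo38 library of code Y and 128 in AG3, against 27.1 to 30.9 in the other MamBo38 libraries and 30.1 to 33.9 in the other MamBo89 libraries. Mcm3 and Mcm4 had the same 2 libraries at the top, with Mcm3 at 49.1 and 110 and Mcm4 at 46.2 and 56.2. Mcm7 was highest in untreated MamBo43 (104, against 53.9 to 63.2 in MamBo38). Of its windows 13.2% are shared with other genes.

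Of the licensing pair, Cdt1, the loading factor for the ring (chr8:122568015-122573554, plus strand), stood at 57.9, 69.4, 61.3 and 60.2 in MamBo38, 20.4, 34.8 and 32.2 in MamBo43 and 20.9, 22.4, 21.1 and 30.9 in MamBo89. No other library reached the lowest MamBo38 value of Cdt1. Cdc6, its partner, was a low-level gene at 2.26, 5.47, 2.15 and 1.99 in MamBo38, 3.11, 1.13 and 1.61 in MamBo43 and 3.83, 2.28, 4.85 and 12.2 in MamBo89, and followed the library. Among the genes that activate the ring, Cdc45 stood at 14.96 in the MamBo38 library of code Y and 16.3 in AG3 and between 5.305 and 5.73 in the other MamBo38 libraries. Mcm10 had the same pattern, with 10.9 and 18 against 3.81 to 4.43 and 4.58 to 6.31 in the other libraries of each line. Gins1 reached 6.698 and 5.97 in these 2 libraries and stood at 1.72 and 1.76 in treated MamBo43. Gins2 ran only from 13.5 to 23.01 in the HER2-negative and from 16.4 to 27.5 in the HER2-positive libraries. Of its 75-base windows 64.7% are shared, most with the overlapping gene Gse1, so its values are uncertain.

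Pcna, the sliding clamp, was the steadiest member, at 84.6, 105, 91.4 and 89.8 in MamBo38, 125, 104 and 111 in MamBo43 and 126, 122, 141 and 157 in MamBo89. Every MamBo38 value but 1 lay below every value of the other lines. Pcna shares 13.8% of its windows with a pseudogene. The catalytic polymerase subunit Pola1 reached 23.7 in the MamBo38 library of code Y and 49.6 in AG3, against 10.3 to 13.8 and 17.6 to 19.6 in the others of these lines. Prim1, the small primase subunit, stood at 8.72, 19.6, 9.06 and 9.78 in MamBo38 and 4.47, 6.89, 6.12 and 13.9 in MamBo89. Rfc4, a subunit of the clamp loader, stood at 9.32 to 9.79 in MamBo43 and at 16.9 and 17.4 in the 2 high libraries. Of the genes that supply deoxynucleotides, Rrm2, the subunit of ribonucleotide reductase that is made in S phase, stood at 9.15, 31.03, 7.21 and 9.22 in MamBo38, 9.88, 3.48 and 6.73 in MamBo43 and 10.6, 10.2, 15.7 and 34.6 in MamBo89, while Rrm1, the large subunit, stood at 36.5 to 54.7 in MamBo43 and at 99.9 and 106 in the 2 high libraries. Tyms, thymidylate synthase, was instead 20.8 to 28.1 in MamBo38, 22.4 to 30.8 in treated MamBo43 and 11.9 to 17.3 in the HER2-positive libraries. Its HER2-negative values all lay above its HER2-positive values.

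Ccne1, cyclin E1, stood at 9.78, 12.3, 9.36 and 9.297 in MamBo38, 2.68, 3.14 and 3.899 in MamBo43 and 3.09, 3.62, 3.58 and 7.62 in MamBo89. Its 4 MamBo38 values were the highest 4 of all. Ccne2 was low in every library (0.835 to 2.51 in MamBo38, 1.52 to 1.93 in MamBo43 and 0.692 to 2.91 in MamBo89). E2f1, the activating factor of the G1/S wave (chr2:154559407-154569892, minus strand), stood at 28.9, 24.3, 31.9 and 31.4 in MamBo38, 20.4, 20.6 and 19.7 in MamBo43 and 59.2, 57.6, 67.3 and 37.99 in MamBo89. E2f1 was thus highest in MamBo89, and the 2 libraries with high G1/S medians had values below those of the other libraries of their own line. E2f2 was low, at 2.22 to 3.63 in MamBo38, 1.61, 0.638 and 0.765 in MamBo43 and 1.75 to 2.28 in MamBo89. Uhrf1, which carries DNA methylation over to new strands, had the widest range of the G1/S genes, at 9.87, 30.9, 10.01 and 10.6 in MamBo38, 16.3, 3.09 and 4.32 in MamBo43 and 18.1, 15.2, 18.6 and 61.8 in MamBo89.

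Among the G2/M genes, Ccnb1, cyclin B1 (chr13:100778650-100786570, minus strand), stood at 36.2, 100.5, 35.05 and 37.3 in MamBo38, 7.75, 8.39 and 7.88 in MamBo43 and 10.4, 10.6, 9.27 and 69.1 in MamBo89, and shares 18.9% of its windows with pseudogenes. Cdk1, the kinase it activates (chr10:69335146-69352938, minus strand), stood at 49.7, 111, 53.4 and 48.6 in MamBo38, 18.8, 16.8 and 15.3 in MamBo43 and 28.6, 25.2, 31.3 and 68.99 in MamBo89. Ccnb1 and Cdk1 of AG3 came to lie above the MamBo38 libraries of code X and below that of code Y. Ccna2, cyclin A2, stood at 12.8, 48.2, 10.7 and 14.4 in MamBo38, 8.07, 3.63 and 2.83 in MamBo43 and 11.4, 12.4, 9.05 and 46.1 in MamBo89. Apart from the 2 high libraries its MamBo38 values (10.7 to 14.4) and its MamBo89 values (9.05 to 12.4) overlapped. Ccnb2 stood at 2.48 to 4.29 in MamBo43 and at 12.7 to 42.2 in MamBo38. Cdc25c, the phosphatase that activates Cdk1, was 11.9 to 36.8 in MamBo38 and 1.34 to 7.57 in all others, and did not overlap between them.

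Of the kinases, Plk1 (Polo-like kinase 1) stood at 10.8, 42.7, 11.8 and 13.1 in MamBo38, 4.13, 3.19 and 3.56 in MamBo43 and 10.8, 8.82, 7.12 and 43.3 in MamBo89. Aurka, which acts at the spindle poles, stood at 18.6, 67.3, 19.8 and 19.5 in MamBo38, 5.59, 4.12 and 5.31 in MamBo43 and 8.95, 8.47, 6.67 and 24.4 in MamBo89. Aurkb, its relative at the centromere, had the widest range of the 49 genes, with 1.13 and 1.3 in treated MamBo43 and 45.3 in the MamBo38 library of code Y. For all 3 kinases the MamBo43 libraries were the lowest 3. The spindle checkpoint kinases Bub1 and Ttk stood at 0.765 to 0.981 and 0.785 to 1.22 in treated MamBo43, and at 29.7 and 22.9 in the MamBo38 library of code Y. Bub1b, the third checkpoint gene, behaved otherwise, with 41.1, 100.2, 40 and 39.3 in MamBo38, 7.83, 14.5 and 16.1 in MamBo43 and 9.18, 8.64, 7.28 and 29.3 in MamBo89, so that its lowest values were those of untreated MamBo43 and of MamBo89 other than AG3.

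Cdc20, the activator of the anaphase-promoting complex, and Ube2c, its ubiquitin-conjugating partner, reached 65.5 and 83.3 in the MamBo38 library of code Y and 65.2 and 44.3 in AG3. In treated MamBo43 they stood at 4.81 to 5.77 and 7.26 to 7.95. Among the motor and kinetochore genes, the mitotic kinesins Kif11, Kif20a and Kif23 stood at 44.4, 94.05 and 50.4 in the MamBo38 library of code Y and at 45.8, 50.02 and 28.2 in AG3. They stood at 2.404 to 2.41, 4.97 to 5.59 and 2.6 to 3.14 in treated MamBo43. Cenpf stood at 2.55 to 3.13 in treated MamBo43 and 97.2 in the MamBo38 library of code Y, and Nusap1, a spindle microtubule binder, at 2.404 to 3.06 in MamBo43 and 39.7 in that library. Tpx2, which activates Aurka on the spindle, and Cenpe, the kinetochore motor, were lowest in untreated MamBo43, at 9.802 and 3.78. In treated MamBo43 they stood at 23.8 and 32.1 and at 8.78 and 7.91. Tpx2, Cenpe, Bub1b, Cdc25c and, by a small margin, Ccnb1 were higher in both treated MamBo43 libraries than in the untreated one, whereas 19 of 25 G2/M genes had a log2 fold change below 0 there.

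Top2a, the topoisomerase that untangles chromosomes (chr11:98992943-99024189, minus strand), stood at 79.8, 259.8, 75.2 and 92.6 in MamBo38, 39.7, 22.6 and 21.5 in MamBo43 and 88.2, 79.3, 73.6 and 308 in MamBo89. Mki67, the proliferation marker Ki-67 (chr7:135689784-135716361, minus strand), stood at 29.9, 115, 27.4 and 32.5 in MamBo38, 20.6, 5.495 and 4.43 in MamBo43 and 50.9, 36.9, 43.1 and 135 in MamBo89. Outside the 2 high libraries Mki67 was higher in every MamBo89 library than in any MamBo38 library, the opposite order to Ccnb1. Birc5, survivin, did the same at 11.2 to 16.1 in MamBo89 and 9.42 to 9.54 in MamBo38. Of the 2 transcription factors of the wave, Foxm1 stood at 17.8, 62.5, 19.6 and 18.4 in MamBo38, 12.4, 5.45 and 4.59 in MamBo43 and 15.1, 11.6, 12.6 and 44.7 in MamBo89. Mybl2 (B-Myb) was lower, at 3.04, 9.54, 3.04 and 3.71 in MamBo38, 3.19, 1.67 and 2.103 in MamBo43 and 5.49, 3.27, 3.69 and 11.6 in MamBo89. Both were highest in the 2 libraries with the highest G2/M medians. The plot of 8 single genes shows the patterns by line and by library side by side.

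**Figure D3:**
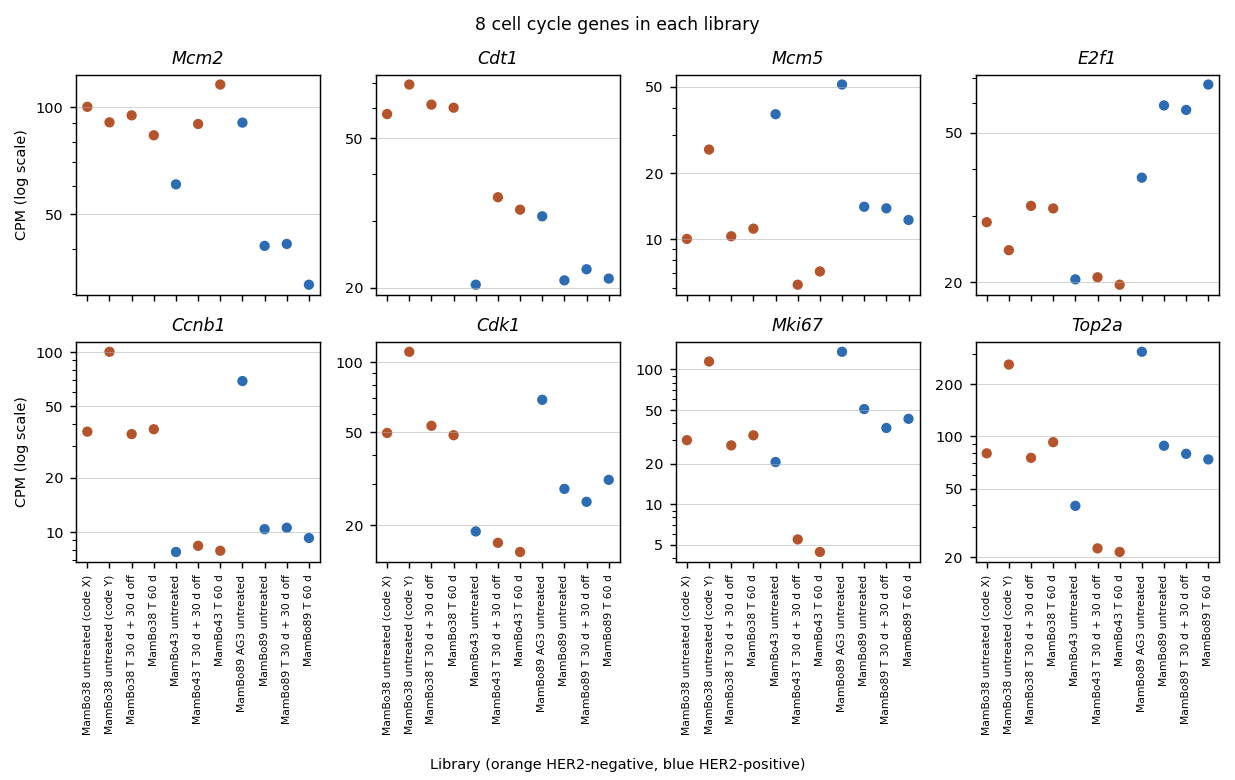
CPM (log axis) of 8 genes in each of the 11 libraries, 1 point per library, with T for trastuzumab. Cdt1 was highest in MamBo38, E2f1 was highest in MamBo89 and Mcm2 was lowest in the MamBo89 libraries other than AG3, whereas Mcm5, Ccnb1, Cdk1, Mki67 and Top2a rise in the MamBo38 library of code Y and in AG3, where Mki67 stood at 115 and 135.

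The first comparison concerned the spread within MamBo38, between the library of code Y (n = 1) and those of code X (n = 3). The fit assumes that the single library varies like the other states. A gene was called where its edgeR adjusted p was below 0.1 and its level changed by 2-fold or more, and 3.32% of the 13782 genes tested were called higher and 1.75% lower. All 25 G2/M genes were called higher, with a median log2 fold change of 1.8, and so were 8 of 24 G1/S genes, with a median of 0.77. No member was called lower. The median over all genes was 0. Bub1 had a log2 fold change of 2.6 ± 0.22 SE, edgeR adjusted p = 8.69e-04, Cenpf 2.46 ± 0.17, Ttk 2.26 ± 0.28, Aurkb 2.18 ± 0.17 and Kif11 2.15 ± 0.22. Of the landmark genes, Ccnb1 had a log2 fold change of 1.47 ± 0.12 SE, edgeR adjusted p = 8.06e-04, Cdk1 1.13 ± 0.14, Plk1 1.84 ± 0.21, Mki67 1.93 ± 0.18, Top2a 1.65 ± 0.14 and Foxm1 1.75 ± 0.17. The 8 G1/S genes were Rrm2 (1.86 ± 0.32), Uhrf1 (1.6 ± 0.19), Cdc45, Mcm10, Cdc6, Mcm5, Mcm6 and Prim1. Mcm2 (-0.04, adjusted p = 0.955), Mcm7 (0.05, adjusted p = 0.858), Tyms (0.00, adjusted p = 1), Cdt1 (0.21, adjusted p = 0.316), Pcna (0.24, adjusted p = 0.259) and E2f1 (-0.34, adjusted p = 0.186) did not pass. The 3 MamBo38 libraries of code X, of which 1 was untreated and 2 were treated, differed by less than 2-fold in all 49 genes. The library of code Y differed from each of them by at least 2-fold in 33 to 35 genes. The code and the culture cannot be told apart here.

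The second comparison set AG3 (n = 1) against the other MamBo89 libraries (n = 3, of which 1 was untreated and 2 were treated), all of the same code. Here 8.42% of the genes tested were called higher and 8.77% lower. Of the G2/M genes 19 of 25 were called higher, with a median log2 fold change of 1.78, and of the G1/S genes 15 of 24, with a median of 1.26. No member was called lower, and the median over all genes was -0.04. The helicase ring rose as a whole, with 6 of 6 genes called, among them Mcm3 with a log2 fold change of 2.06 ± 0.29 SE, edgeR adjusted p = 0.0017, Mcm6 with 2.01 ± 0.37, Mcm5 with 1.94 ± 0.43 and Mcm2 with 1.26 ± 0.19. Cdc45 (1.88 ± 0.51), Uhrf1 (1.84 ± 0.53), Cdc6 (1.75 ± 0.55), Mcm10, Gins1, Pola1, Prim1, Ccne1 and Rrm1 were also called. Among the G2/M genes, Ccnb1 had a log2 fold change of 2.79 ± 0.49 SE, edgeR adjusted p = 0.0043, Cdc20 2.62 ± 0.54, Ttk 2.42 ± 0.81, Kif20a 2.37 ± 0.66, Plk1 2.29 ± 0.62 and Ccna2 2.08 ± 0.66. Mki67 had 1.64 ± 0.64, Top2a 1.95 ± 0.54 and Cdk1 1.29 ± 0.39. E2f1 was below the other MamBo89 libraries (log2 fold change of -0.68 ± 0.18 SE, edgeR adjusted p = 0.0242) by less than the fold limit, and Rrm2 (1.52, adjusted p = 0.125), Birc5 (1.45, adjusted p = 0.11), Bub1 (1.91, adjusted p = 0.142), Cdc25c (0.51, adjusted p = 0.542) and Pcna (0.28, adjusted p = 0.187) did not pass. Leaving out 1 other library at a time gave 23 to 40 members called higher.

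These first comparisons share no library, although both take their spread from all 11. All 19 G2/M genes called higher in AG3 were among the 25 called higher in the MamBo38 library of code Y (76.0% of the latter). Among the G1/S genes, 7 were called higher in both, which is 87.5% of the 8 genes of MamBo38 and 46.7% of the 15 of AG3. They were Mcm5, Mcm6, Cdc6, Cdc45, Mcm10, Prim1 and Uhrf1. Over all genes tested, 141 were called higher in both, which is 30.9% of 457 and 12.1% of 1161. Another 8 G1/S genes were called in neither, namely Ccne2, Cdt1, E2f1, E2f2, Gins2, Pcna, Rfc4 and Tyms. Mcm2, Mcm3, Mcm4, Mcm7, Gins1, Pola1, Rrm1 and Ccne1 were called in AG3 alone and Rrm2 in MamBo38 alone, and the difference between the contrasts was not tested.

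MamBo38 (n = 4) was compared with MamBo89 without AG3 (n = 3). Of all genes tested 20.9% were called higher in MamBo38 and 22.2% lower. The G2/M genes stood higher in MamBo38, with 19 of 25 called, 0 called lower and a median log2 fold change of 1.48. Of the G1/S genes 5 were called higher and 1 lower, with a median of 0.30. Bub1b had a log2 fold change of 2.72 ± 0.36 SE, edgeR adjusted p = 7.39e-05, Ccnb1 2.38 ± 0.38, Kif20a 2.08 ± 0.51, Ttk 2.04 ± 0.63, Aurka 1.97 ± 0.47, Tpx2 1.85 ± 0.38 and Cdc25c 1.84 ± 0.40. Cdk1 had 1.22 ± 0.28 and Foxm1 1.18 ± 0.44. Mki67 (0.23, adjusted p = 0.669), Top2a (0.66, adjusted p = 0.159), Birc5 (0.19, adjusted p = 0.707), Mybl2 (0.22, adjusted p = 0.66), Kif11 (0.74, adjusted p = 0.239) and Ccna2 (0.98, adjusted p = 0.0981) were not called. The G1/S genes called higher were Ccne1 (log2 fold change of 1.58 ± 0.19 SE, edgeR adjusted p = 4.03e-05), Cdt1 (1.54 ± 0.10), Mcm2 (1.29 ± 0.14), Gins1 (1.21 ± 0.28) and Prim1 (1.02 ± 0.31). E2f1 was called lower (log2 fold change of -1.06 ± 0.12 SE, edgeR adjusted p = 2.05e-05), and Pcna lay below MamBo89 by less than the fold limit (-0.48, adjusted p = 0.00154). Without the MamBo38 library of code Y the G2/M median was 0.72 and 12 members were called higher in place of 24. With that library as the only one of MamBo38, which the library code as a covariate amounts to, the G2/M median was 2.62. With AG3 counted as MamBo89 the median was 0.79 and 7 members were called higher. The other MamBo38 libraries carry a code that no MamBo89 library has, and for these the code and the line cannot be told apart.

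MamBo43 (HER2 labile) was the line with the lowest G2/M levels before and after trastuzumab. In the comparison given next, 2 of the 3 MamBo89 libraries had been given trastuzumab. Untreated MamBo43 (n = 1) was compared with MamBo89 without AG3 (n = 3), where 13.3% of genes were called higher and 11.2% lower. Of the G2/M genes 24 of 25 had a log2 fold change below 0, with a median of -0.60, and 2 were called lower, Cdc25c (log2 fold change of -2.0 ± 0.69 SE, edgeR adjusted p = 0.0489) and Cenpe (-1.91 ± 0.62). The G1/S median was 0.02, with Mcm5 (log2 fold change of 1.48 ± 0.44 SE, edgeR adjusted p = 0.0262) and Mcm7 (1.32 ± 0.13) called higher and E2f1 (-1.59 ± 0.20) called lower. Of the 6 ring genes 5 passed the adjusted p, all higher in MamBo43, as did 21.7% of all genes in that direction without the fold limit. Without the MamBo38 library of code Y, which enters only through the shared spread, 11 members were called lower. With AG3 counted as MamBo89 the medians were -0.31 for G1/S and -1.3 for G2/M.

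Within MamBo43, the libraries that had been given trastuzumab and had lost HER2 (n = 2) were compared with the untreated one (n = 1). All 3 carry the same code. Of all genes 15.3% were called higher and 17.8% lower. Of the G1/S genes 5 were called lower and 0 higher, with a median log2 fold change of -0.52. Of the G2/M genes 2 were called lower and 1 higher, with a median of -0.74. Mcm5 fell from 37.4 to 6.18 and 7.11 CPM (log2 fold change of -2.48 ± 0.48 SE, edgeR adjusted p = 0.00262), and Uhrf1 fell from 16.3 to 3.09 and 4.32 (-2.12 ± 0.62). Mcm4 (-1.06 ± 0.29), Mcm10 (-1.29 ± 0.57) and E2f2 (-1.18 ± 0.42) were the other G1/S genes called lower. Mki67 fell from 20.6 to 5.495 and 4.43 CPM (log2 fold change of -2.05 ± 0.76 SE, edgeR adjusted p = 0.0506) and Birc5 from 5.71 to 1.42 and 1.38 (-2.02 ± 0.75). Tpx2 rose from 9.802 to 23.8 and 32.1 CPM (log2 fold change of 1.52 ± 0.64 SE, edgeR adjusted p = 0.0773). Mcm2 (0.77, adjusted p = 0.016), Cdt1 (0.73, adjusted p = 0.00491) and Tyms (0.89, adjusted p = 0.0183) rose by less than the fold limit, while Mcm3 (-0.98, adjusted p = 0.0319) and Mcm7 (-0.61, adjusted p = 0.00702) fell by less than that limit. The helicase ring was therefore not of one direction. Ccnb1 (0.08, adjusted p = 0.937), Cdk1 (-0.22, adjusted p = 0.717), Plk1 (-0.28, adjusted p = 0.79), Aurka (-0.23, adjusted p = 0.822) and E2f1 (-0.01, adjusted p = 0.986) did not pass. The count depends on the shared spread, since without the MamBo38 library of code Y there were 15 calls lower and 3 higher, and with only the 3 MamBo43 libraries in the fit 12 and 2. Without 1 of the treated MamBo43 libraries, there were 3 calls lower and 2 higher (30 days then 30 days without left out) or 4 and 0 (60 days left out).

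Treated MamBo43 (n = 2) and MamBo38 (n = 4), both HER2-negative and from tumor B, differed in the G2/M genes more than any other pair of states compared here by the median. All 25 were called lower in treated MamBo43, with a median log2 fold change of -2.72, where 11.5% of all genes were called lower and 11.2% higher. Of the G1/S genes 9 were called lower and 0 higher, with a median of -0.65. Aurkb had a log2 fold change of -3.93 ± 0.77 SE, edgeR adjusted p = 0.00298, Cenpf -3.71 ± 0.84, Bub1 -3.66 ± 0.92, Birc5 -3.46 ± 0.63, Mki67 -3.36 ± 0.65 and Ttk -3.18 ± 0.80. The cyclins Ccnb2 (-2.86 ± 0.54), Ccna2 (-2.74 ± 0.64) and Ccnb1 (-2.68 ± 0.46), with Cdk1 (-2.03 ± 0.34), Plk1 (-2.53 ± 0.60), Aurka (-2.72 ± 0.58), Top2a (-2.52 ± 0.51), Foxm1 (-2.56 ± 0.55) and Mybl2 (-1.35 ± 0.51), were lower too. The G1/S genes called lower were Uhrf1 (log2 fold change of -2.04 ± 0.50 SE, edgeR adjusted p = 0.00909), E2f2 (-1.96 ± 0.33), Ccne1 (-1.53 ± 0.22), Cdc45, Rrm2, Gins1, Mcm10, Mcm5 and Cdc6. Cdt1 (-0.89, adjusted p = 2.72e-04) and E2f1 (-0.54, adjusted p = 0.0109) passed the adjusted p but not the fold limit, while Mcm2 (0.15, adjusted p = 0.418), Tyms (0.09, adjusted p = 0.714), Pcna (0.21, adjusted p = 0.148) and Prim1 (-0.04, adjusted p = 0.946) did not pass. Without the MamBo38 library of code Y the G2/M median was -2.03 and 29 members were called lower, in place of 34. The treated MamBo43 libraries carry code Y and the other MamBo38 libraries code X.

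**Figure D4:**
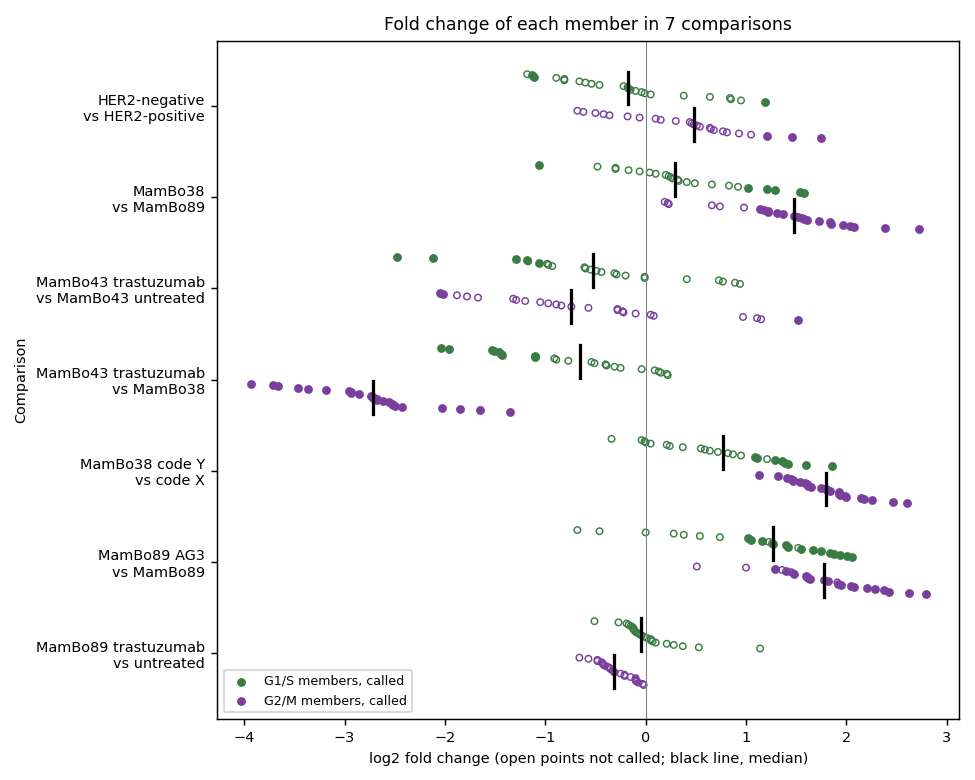
Log2 fold change of each G1/S gene (green) and G2/M gene (purple) in 7 comparisons, with filled points for genes called and a black line at the median. The G2/M medians are 1.8 for the MamBo38 code, 1.78 for AG3 and -2.72 for treated MamBo43 against MamBo38, while the HER2 comparison gives 0.48 and treated MamBo89 -0.32.

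Trastuzumab was given to 2 cultures each of MamBo89, which kept HER2, and of MamBo38, which had none. In MamBo89 (n = 2 treated, 1 untreated) edgeR called 0 of 49 members and 0% of all genes. DESeq2 called 0 members as well, 0 members had an unadjusted p below 0.05, and 144 of all 13782 genes had one. Every one of the 25 G2/M genes had a log2 fold change below 0, with a median of -0.32. The G2/M level of the untreated library (-0.052) lay above those of both treated libraries (-0.23 and -0.35), and with 1 untreated library the spread between untreated cultures was not measured. The G1/S median was -0.05. With AG3, which was also untreated, counted with the untreated library, the medians were -1.3 for G2/M and -0.75 for G1/S. Mki67 was 50.9, 36.9 and 43.1 CPM in untreated cells and after each schedule (-0.35 ± 0.61), and Ccnb1 was 10.4, 10.6 and 9.27 (-0.07 ± 0.51). In MamBo38 (n = 2 and 2) edgeR again called 0 of 49 members and 0% of all genes, and DESeq2 0 members, while 14 members had an unadjusted p below 0.05, all lower. Of all genes 569 had one, in either direction. The G2/M median was -1.10 and the G1/S median -0.37, and both rested on the untreated library of code Y. Against the untreated library of code X alone, the medians were 0.04 for G2/M and 0.08 for G1/S. Against the untreated library of code Y alone they were -1.77 and -0.73, with 33 members called lower. Within code X, Mki67 was 29.9 CPM untreated and 27.4 and 32.5 treated, and Cdk1 was 49.7, 53.4 and 48.6.

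Whether the change with trastuzumab differed between MamBo43 and MamBo89 was tested as an interaction, in which 10.6% of all genes were called higher and 11.6% lower. Of the members 1 was called in each direction, and 4 passed the adjusted p, as did 27.8% of all genes. Mcm5 fell more in MamBo43 (difference in log2 fold change -2.36 ± 0.67, edgeR adjusted p = 0.0472), and Tpx2 rose more (1.84 ± 0.68, adjusted p = 0.0985). Mcm2 (0.93, adjusted p = 0.0825) and Cdt1 (0.68, adjusted p = 0.0998) passed the adjusted p and not the fold limit. The medians of the differences were -0.48 for G1/S and -0.19 for G2/M, and Mki67 (-1.69, adjusted p = 0.223) and Uhrf1 (-2.02, adjusted p = 0.119) did not pass. The counts rested on single libraries. Without either untreated MamBo38 library, which enters only through the shared spread, 3 members were called higher and 10 lower. Without the MamBo43 library given trastuzumab for 30 days and then none, 3 were called higher and 1 lower. There were 0 members called higher without 1 of 4 other libraries (either treated MamBo38 library, or the MamBo43 or the MamBo89 library given trastuzumab for 60 days), with size factors in place of TMM and at an adjusted p of 0.05. Tpx2 was also not called without the MamBo89 library given trastuzumab for 30 days and then none.

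The question of the study, HER2-negative (n = 6) against HER2-positive (n = 5) libraries, gave few calls among the members. The 49 members are set beside 12364 genes tested, of which 15.8% were called higher and 17% lower. Of the members 4 were called higher and 2 lower. These counts were not stable to leaving out 1 library, with 2 higher without any 1 of 8 libraries and 11 higher without AG3, and with 0 lower without any 1 of 6 libraries and 7 lower without the MamBo38 library of code Y. With the tumor of origin as a covariate, and also at an adjusted p of 0.05, there were 2 higher and 0 lower. Cdt1 had a lowest, median and highest CPM of 32.2, 59.1 and 69.4 in the HER2-negative libraries and of 20.4, 21.1 and 31 in the HER2-positive ones (log2 fold change of 1.19 ± 0.23 SE, edgeR adjusted p = 0.00118). Its groups did not overlap, nor did those of Tyms (0.84, adjusted p = 8.36e-04), which stayed under the fold limit. Not overlapping with the HER2-negative group higher was found for 2 members, both G1/S, and for 17.5% of all genes. Pcna was the 1 member whose HER2-negative values all lay lower (-0.46, adjusted p = 0.00453), as for 17.4% of all genes. Bub1b (log2 fold change of 1.75 ± 0.56 SE, edgeR adjusted p = 0.022), Cdc25c (1.46 ± 0.67) and Tpx2 (1.21 ± 0.55) were the G2/M genes called higher, and Mcm5 (-1.13 ± 0.48) and Cdc6 (-1.11 ± 0.51) the G1/S genes called lower. All 5 had overlapping groups. Mki67 had a lowest, median and highest CPM of 4.43, 28.6 and 115 in the HER2-negative and of 20.6, 43.1 and 135 in the HER2-positive libraries (log2 fold change of -0.68 ± 0.77 SE, edgeR adjusted p = 0.474). Ccnb1 (0.81, adjusted p = 0.401), Cdk1 (0.51, adjusted p = 0.425), Plk1 (-0.06, adjusted p = 0.95), Top2a (-0.36, adjusted p = 0.685) and Foxm1 (0.15, adjusted p = 0.862) did not pass either. The median log2 fold change was 0.48 over the G2/M genes and -0.17 over the G1/S genes. The first turned with 1 library, to -0.34 without the MamBo38 library of code Y and to 1.11 without AG3, and it was 1.62 with the tumor of origin as a covariate.

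Lists of related genes that are not members were read in the same fits. Of 45 other G2/M genes 39 were called higher in the MamBo38 library of code Y (led by Kif20b, 2.58 ± 0.20, and Nuf2, 2.49 ± 0.28), 28 higher in AG3 (Nuf2, 2.73 ± 0.85, and Ndc80, 2.65 ± 0.64), 28 higher in MamBo38 against MamBo89 (Dlgap5, 2.96 ± 0.55, and Gtse1, 2.79 ± 0.55) and 40 lower in treated MamBo43 against MamBo38 (Hmmr, -3.51 ± 0.77, and Kif14, -3.31 ± 0.67). Their medians were 1.66, 1.66, 1.24 and -2.51, each smaller in size than that of the 25 G2/M members (1.8, 1.78, 1.48 and -2.72). Of 45 other G1/S genes 11, 15, 6 and 16 were called in those directions, with medians of 0.62, 0.59, 0.20 and -0.77. Of these, Tk1, thymidine kinase, set MamBo89 apart from the other lines instead, and Dut, dUTPase, split the HER2 groups. Tk1 stood at 6.52 to 11.3 CPM in MamBo38, 4.74 to 9.92 in MamBo43 and 55.8 to 108 in MamBo89, and Dut at 215 to 273 in the HER2-negative and 21.3 to 31.7 in the HER2-positive libraries (log2 fold change of 3.16 ± 0.14 SE, edgeR adjusted p = 3.50e-07). Within MamBo43, 14 of the other G1/S genes were called lower and 3 higher with trastuzumab, led by Exo1 (-2.7 ± 0.85) and Dtl (-2.29 ± 0.54) on the lower side and by Dut (2.98 ± 0.24) and Cdc7 (1.75 ± 0.44) on the higher side.

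In the list of 15 E2F, retinoblastoma and DREAM genes, E2f7 and E2f8, the repressor E2Fs that are made late in the wave, went with the members. E2f8 stood at 4.43, 22.2, 6.14 and 6.04 CPM in MamBo38, 2.09, 0.196 and 0.535 in MamBo43 and 2.44, 1.34, 2.32 and 8.83 in MamBo89. E2f7 and E2f8 were the 2 genes of the list called higher in the MamBo38 library of code Y (1.75 ± 0.30 and 2.0 ± 0.34) and the 2 called lower in treated MamBo43 against MamBo38 (-2.95 ± 0.64 and -4.65 ± 0.85). In AG3 they were among 6 genes called higher. In treated against untreated MamBo43 the list moved both ways, with 6 log2 fold changes above 0 and 9 below 0. Lin52 went from 5.94 to 15.2 and 18 CPM there, and E2f4 from 40.8 to 75.5 and 91.4. Rb1, the retinoblastoma gene, was 74.95, 25.5 and 27.8 CPM in MamBo43 and was called lower after trastuzumab (log2 fold change of -1.49 ± 0.27 SE, edgeR adjusted p = 0.00175). Of the Cdk inhibitors and D cyclins, Ccnd1 was the only gene called in the MamBo38 library of code Y (log2 fold change of 1.59 ± 0.23 SE, edgeR adjusted p = 0.00664), at 245, 742, 240.2 and 254 CPM in MamBo38 and 847, 814, 645 and 1304 in MamBo89. Cdkn1a, which encodes p21, stood at 441 to 489 in MamBo38, 60.5, 296 and 739 in MamBo43 and 69.5 to 151 in MamBo89, and was higher in the HER2-negative libraries (log2 fold change of 2.43 ± 0.29 SE, edgeR adjusted p = 5.28e-05). Cdkn2a and Cdkn2b, which encode INK4 inhibitors, had 0 counts in all 4 MamBo38 libraries. That allows up to 0.111 to 0.174 CPM each, for counting error only. In the other libraries they stood at 1.15 to 8.05 and 9.405 to 55.4 CPM. The INK4 genes Cdkn2c and Cdkn2d went the other way, at 17.6 to 24 and 16.3 to 21.4 CPM in MamBo38. Elsewhere they stood at 8.99 to 15.2 and 4.76 to 16.1 CPM.

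Total counts ran from 17040454 to 27127662 per library, with a median of 20592201, and the lowest count of any member in any library was 13, so precision was set by the few libraries rather than by counting for all but the rarest members. The labelled cell type was checked by summed CPM of 8 luminal epithelial markers (Krt8, Krt18, Krt19, Epcam, Cdh1, Cldn3, Cldn4 and Elf3) and 8 mesenchymal markers (Vim, Fn1, Zeb1, Sparc, Pdgfrb and 3 collagen genes). The luminal sum was 1.88 to 2.74 in MamBo38, where Krt8 and Epcam stood at 0.28 CPM or less. It was 1810 and 293 in treated MamBo43, and 2480 to 3910 in the HER2-positive libraries. Krt19 stood at 0.0552 CPM or less in every library of all lines. The mesenchymal sum was 23700 to 48600 in the HER2-negative libraries and 267 to 2360 in the HER2-positive ones. These sums move with the HER2 groups and with the line, and their part in the line differences was not tested. AG3 and the MamBo38 library of code Y, high in the G2/M genes, stood at 2480 and 2.74 of the luminal sum and at 2360 and 23700 of the mesenchymal sum. Immune markers summed to 30.7 to 52 in MamBo38 and 2.05 to 17.8 elsewhere, most of it from Cd68 in MamBo38 (26.8 to 49.9 CPM), while Ptprc, Csf1r, Cd3e, Itgam and Lyz2 stood at 0.191 CPM or less in every library. Endothelial markers summed to at most 1.83 and adipocyte markers to at most 2.71. The table lists 0 mitochondrial genes.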

How the data were processed

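RNA from 11 cultures was sequenced as 75-base single-end reads with a kit that keeps no strand, so overlapping genes on opposite strands cannot be told apart. Per the submitters' processing notes, reads were aligned to mm10 with STAR 2.5 and summed per gene with RSEM 1.3.0. The deposited values are expected counts as the authors' pipeline gave them, and all were whole numbers, so no rounding was needed. Total counts ran from 17040454 to 27127662 per library, and the table lists 21846 genes.

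Genes were tested with edgeR 4.0.16 in R 4.3.3 (TMM factors, filter on low counts with a minimum of 10 and a total of 15, quasi-likelihood test, Benjamini-Hochberg adjustment over all genes tested). A gene was called at an adjusted p below 0.1 and a log2 fold change of 1 or more in size, and SEs were derived from the F statistic. The HER2 comparison used 2 groups of libraries, and the others a fit of 5 states (MamBo38, treated MamBo43, untreated MamBo43, AG3 and the other MamBo89 libraries), split by treatment for the trastuzumab comparisons within MamBo89 and MamBo38 and the interaction, and with the library code as a term for the comparison of codes. States with 1 library take the spread of the others. The fits were tested on simulated data. DESeq2 1.42.0, other scalings and filters, covariates and left-out libraries were the alternatives.

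All 49 genes were named by role. Full values were given for called members, up to 15 a comparison by size of change, and for 18 landmark genes. From the related lists only some of the called genes were named, and not for every comparison. Members and lists were chosen with earlier results of these data known. Gene positions are those of GENCODE M21 (GRCm38), and promoters come from a RefSeq table (GRCm38.p6). Promoters on chr18 were left out. For 10 of the 49 genes, Cdc25c and Kif20a of chr18 among them, no promoter was read.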

Additional observations from a re-analysis of the deposited data

Results flagged for a closer look

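In most groups of values 1 library stood apart from the others, by a test of the gap between an extreme value and its neighbour relative to the range of the group. Of 44 groups of values, 29 held such a library, where chance gives about 5%. In MamBo38 it was the untreated library of code Y, with a G2/M level of 2.125 and a G1/S level of 0.736. In MamBo89 it was AG3, with a G2/M level of 1.517 and a G1/S level of 0.834, and the latter also stood apart among the HER2-positive libraries.

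Among the HER2-negative libraries the MamBo38 library of code Y stood apart for 11 of 18 landmark genes. Its G1/S values were 25.73 CPM for Mcm5, 5.47 for Cdc6 and 31.03 for Rrm2. Its G2/M values were 48.23 CPM for Ccna2, 100.5 for Ccnb1, 42.7 for Plk1, 67.26 for Aurka, 114.6 for Mki67, 259.8 for Top2a, 62.52 for Foxm1 and 9.545 for Mybl2.

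Among the HER2-positive libraries AG3 stood apart for 13 of 18 landmark genes. Its G1/S values were 12.23 CPM for Cdc6, 30.95 for Cdt1, 34.64 for Rrm2 and 7.617 for Ccne1. Its G2/M values were 46.14 CPM for Ccna2, 69.09 for Ccnb1, 68.99 for Cdk1, 43.33 for Plk1, 24.36 for Aurka, 135.3 for Mki67, 307.8 for Top2a, 44.69 for Foxm1 and 11.6 for Mybl2. The genes share libraries, so these values are not independent of each other.

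The change with trastuzumab differed between MamBo43 and MamBo89 for 4 of the 49 members at an edgeR adjusted p below 0.1, beside 27.8% of all 13782 genes tested. The difference in log2 fold change was -2.36 for Mcm5, 1.84 for Tpx2, 0.93 for Mcm2 and 0.68 for Cdt1. In each line 2 treated libraries were set against 1 untreated library.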

How the results depend on the processing

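Of all results recomputed, 0 passed the threshold in the opposite direction. No paired analysis was run. The labels carry no replicate numbers, although the treated libraries of the lines share their schedules. Under DESeq2, treated against untreated MamBo43 had 11 members lower, and the interaction 2 lower. Size factors in place of TMM left 0 higher in the interaction. Without a filter the HER2 comparison had 1 lower and the interaction 2 lower, and with at least 10 counts in every library the interaction had 4 lower. At an adjusted p of 0.05 the HER2 comparison had 2 higher and 0 lower, treated MamBo43 0 higher and 4 lower, and the interaction 0 higher.

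Once the library code entered as a covariate, the HER2 comparison had 1 member higher and 1 lower. MamBo38 against MamBo89 had medians of 0.94 (G1/S) and 2.62 (G2/M), treated MamBo43 against MamBo38 -1.06 and -3.82, and treated against untreated MamBo38 0.08 and 0.04. Treated against untreated MamBo43 had 3 higher and 15 lower, untreated MamBo43 against MamBo89 11 lower, and the interaction 3 higher and 10 lower. With the tumor as a covariate the HER2 comparison had 2 higher, 0 lower and a G2/M median of 1.62. Code Y alone gave it 1 higher and 1 lower, and untreated libraries alone 0 lower and a G2/M median of 1.21. With only the libraries compared, treated MamBo43 had 2 higher and 12 lower, and untreated MamBo43 against MamBo89 9 lower.

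With AG3 joined to MamBo89, MamBo38 against MamBo89 had 7 higher, 0 lower and a G2/M median of 0.79. Untreated MamBo43 against MamBo89 had 0 higher and medians of -0.31 and -1.3, treated MamBo89 medians of -0.75 and -1.3, and the interaction 4 higher, 0 lower and medians of 0.1 and 0.59. With both high libraries left out, an alternative added after seeing the data, MamBo38 against MamBo89 had 13 higher, 0 lower and a G2/M median of 0.74, treated MamBo43 3 higher and 15 lower, untreated MamBo43 9 lower, and treated MamBo43 against MamBo38 a G2/M median of -2.04.

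Leaving out 1 library at a time, the HER2 comparison had a G2/M median of -0.34 (without the MamBo38 library of code Y) to 1.11 (without AG3), a G1/S median of -0.4 to 0.08, 2 to 11 higher and 0 to 7 lower. Treated MamBo38 had medians of -0.73 to 0.08 and -1.77 to 0.04, with 0 to 33 lower. MamBo38 against MamBo89 had a G1/S median of 0.06 to 0.4, a G2/M median of 0.72 to 1.65, 12 to 25 higher and 0 to 1 lower, and treated MamBo43 against MamBo38 a G2/M median of -2.89 to -2.03. Treated MamBo43 had 0 to 3 higher and 3 to 15 lower, untreated MamBo43 3 to 11 lower, the interaction 0 to 3 higher and 1 to 10 lower, and AG3 23 to 40 higher. The causes were not tested.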
